A study of Homo sapiens with 12 samples.

Results

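GDF15, ADM2 and STC2 are genes for secreted proteins that cells release under stress. They were selected by name, and each was found by its Ensembl identifier as 1 row of the count table, so the account covers 3 of 58037 gene rows. The levels and fold changes of these genes in earlier results of the same libraries were known when they were chosen. Their own values are therefore given below as a description, with no test. The lists of related genes below were also chosen with earlier results known, and the p-values of their genes do not allow for that choice.

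Transcripts were counted by RNA sequencing in BT-549 and SUM149, which are established human lines of triple-negative breast cancer. Cells of each line stably carried either MUC1shRNA, a short hairpin RNA directed at MUC1-C, or the control CshRNA. MUC1-C is the membrane-spanning subunit of the mucin MUC1. The 4 groups were BT-549 MUC1shRNA, BT-549 CshRNA, SUM149 MUC1shRNA and SUM149 CshRNA, with 3 libraries each and 12 in all. Per the labels, BT-549 cells grew in RPMI1640 with serum and insulin, and SUM149 cells in Ham's F-12 with serum, insulin and hydrocortisone, so that line and medium cannot be told apart. The BT-549 controls are named vector in their descriptions and CshRNA in their titles, so the labels do not settle whether they carried a hairpin. The labels speak of different sets and of culture in triplicate, without saying whether the hairpin was introduced separately in each set. P-values therefore measure the spread between these samples, which may be technical. No hairpin sequence was available in the sources used here.

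GDF15 is a distant member of the TGF-beta family that signals appetite loss through the hindbrain receptor GFRAL and its partner RET. ADM2, also called intermedin, is a calcitonin family peptide that acts on CALCRL combined with a RAMP protein. STC2 is a secreted glycoprotein that blocks the protease PAPPA, which otherwise cuts IGFBP4 and frees insulin-like growth factors. In the integrated stress response, kinases that sense amino acid lack, unfolded protein, heme lack or double-stranded RNA phosphorylate the initiation factor subunit encoded by EIF2S1, translation of ATF4 then increases, and ATF4 with DDIT3 is known to raise transcription of stress genes, these hormones among them.

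GDF15 (ENSG00000130513.6) lies at chr19:18374731-18389176 on the plus strand, ADM2 (ENSG00000128165.8) at chr22:50481556-50486440 on the plus strand and STC2 (ENSG00000113739.10) at chr5:173314713-173329503 on the minus strand, in GENCODE 29 on GRCh38. Their annotated exons share 0 bases with those of other genes. MIR3189 lies within GDF15 and shares 0 of its exon bases. The promoters are shown because the levels of the 3 genes differed together in SUM149. Each covers 250 bases before to 50 bases after the RefSeq start on GRCh38.p14, at chr19:18385908-18386207 (+), chr22:50481293-50481592 (+) and chr5:173328365-173328664 (-), and capitals mark the matches to motifs described below.
GDF15: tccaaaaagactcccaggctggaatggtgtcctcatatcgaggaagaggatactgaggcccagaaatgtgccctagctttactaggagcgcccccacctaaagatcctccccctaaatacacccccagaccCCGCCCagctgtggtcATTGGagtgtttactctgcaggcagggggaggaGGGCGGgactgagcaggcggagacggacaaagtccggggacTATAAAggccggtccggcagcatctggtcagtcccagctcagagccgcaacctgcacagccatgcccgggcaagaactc
ADM2: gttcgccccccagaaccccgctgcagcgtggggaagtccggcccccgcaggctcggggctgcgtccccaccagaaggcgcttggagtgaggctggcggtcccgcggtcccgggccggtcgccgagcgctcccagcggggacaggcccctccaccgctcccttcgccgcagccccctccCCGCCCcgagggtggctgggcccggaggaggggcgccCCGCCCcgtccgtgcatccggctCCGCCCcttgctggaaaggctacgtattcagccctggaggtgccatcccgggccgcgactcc
STC2: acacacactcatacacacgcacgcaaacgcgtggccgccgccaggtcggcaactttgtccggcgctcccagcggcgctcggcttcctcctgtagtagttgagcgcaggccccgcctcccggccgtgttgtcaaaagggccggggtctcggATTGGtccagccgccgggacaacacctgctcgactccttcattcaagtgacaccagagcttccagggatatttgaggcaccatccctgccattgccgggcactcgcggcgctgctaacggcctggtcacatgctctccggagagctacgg

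The 3 windows had different base compositions. ADM2 had 76.7% G and C and 33 CpG steps, more G and C than 93.1% of the 35116 RefSeq promoters of this length. STC2 had 64.0% with 28 CpG steps and GDF15 had 59.3% with 11, against a median of 58.7% over all these promoters. GDF15 alone of the 3 held the TATA box core TATAAA, at position -29 from the start on the plus strand, a motif found in 11.5% of all promoters on either strand. The GC box GGGCGG, present in 45.0% of promoters, occurred at -119 and -70 in GDF15 and at -72, -35 and -12 in ADM2. Its occurrences lay on the minus strand except the one at -70, and STC2 held none. The CCAAT box, in 34.6% of promoters, was found on the minus strand at -103 in GDF15 and at -100 in STC2. No match to the core TGATGNAA of the C/EBP-ATF response element (3.62% of promoters), the cAMP response element TGACGTCA (1.85%), the endoplasmic reticulum stress element (0.0769%), the E-box CACGTG (7.26%) or the hypoxia core ACGTG (21.4%) was present in the 3 windows on either strand. The E-box contains the hypoxia core, and the endoplasmic reticulum stress element contains the CCAAT box. These letters being missing says only that they are not in these windows, and the GENCODE annotations of GDF15 and STC2 begin upstream of the RefSeq starts used here.

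Total counts per library ranged from 16373893 to 21248768 in BT-549 MUC1shRNA, from 16332365 to 20745835 in BT-549 CshRNA, from 7931614 to 9623924 in SUM149 MUC1shRNA and from 19392422 to 24140623 in SUM149 CshRNA. The SUM149 CshRNA libraries were thus on average 2.44 times as deep as the SUM149 MUC1shRNA libraries. BT-549 MUC1shRNA 2, BT-549 CshRNA 3 and SUM149 CshRNA 3 differed more in their counts from the remaining libraries of the same group (chi-square per degree of freedom up to 14.5). MUC1 itself fell, with a log2 fold change of -3.53 in BT-549 (SE 0.14, edgeR adjusted p = 4.2e-07) and of -4.59 in SUM149 (SE 0.27, edgeR adjusted p = 1.8e-08). It was 3.60, 6.02 and 4.28 CPM in BT-549 MUC1shRNA against 51.9, 53.7 and 54.3 CPM in BT-549 CshRNA, and 1.06, 0.334 and 0.482 CPM in SUM149 MUC1shRNA against 16.4, 16.6 and 12.1 CPM in SUM149 CshRNA. CPM are counts scaled to a common total by the TMM-adjusted library size. SE is the absolute log2 fold change divided by the square root of edgeR's F statistic. At few counts it can be smaller than counting error alone. No SE is given for GDF15, ADM2 and STC2, because it comes from the test statistic. ESR1 and PGR averaged at most 4.88 CPM in each group, while ERBB2, the HER2 gene, averaged 36.6 to 58.6 CPM. Of 5 leukocyte markers, CD3E and LYZ summed to at most 1 count per group, and the 5 together reached at most 5.06 CPM in any library. The 4 mesenchymal markers, none at 0, summed to 3032 to 3409 CPM in SUM149 MUC1shRNA and 816 to 915 CPM in SUM149 CshRNA, mostly FN1. There VIM, CDH2 and ZEB1 averaged 32.3, 52.6 and 0.72 CPM with MUC1shRNA against 31.4, 50.9 and 0.12 CPM with CshRNA. In BT-549 the sums overlapped, at 3370 to 4395 CPM with MUC1shRNA and 3168 to 3683 CPM with CshRNA. The 6 epithelial markers, none at 0, summed to 807 to 1046 CPM in BT-549 MUC1shRNA and 328 to 382 CPM in BT-549 CshRNA, nearly all KRT18 and KRT8. EPCAM and KRT14 averaged lower with MUC1shRNA in BT-549, at 0.037 and 0.074 CPM against 0.29 and 0.17 CPM with CshRNA. CDH1 and KRT5 averaged higher, at 1.37 and 15.9 CPM against 0.89 and 12.1 CPM. In SUM149 the epithelial sums overlapped, at 1774 to 1850 CPM with MUC1shRNA and 1821 to 1847 CPM with CshRNA. Within them KRT5 averaged 136 against 274 CPM and KRT14 1.87 against 0.87 CPM. The 4 fibroblast markers summed to 2967 to 3180 CPM in BT-549 MUC1shRNA and 2400 to 2659 CPM in BT-549 CshRNA, nearly all COL1A1 and COL1A2, while LUM had 0 counts in every library. The 3 endothelial markers summed to 9.06 to 10.6 CPM in SUM149 MUC1shRNA and 26.7 to 30.03 CPM in SUM149 CshRNA, nearly all PECAM1, while CDH5 had at most 2 counts per group. The part of depth or of these markers in the results below was not tested. In bulk RNA, fewer cells of a type and less RNA per cell cannot be told apart.

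GDF15 differed with MUC1shRNA in both lines, and in opposite directions. In BT-549 its level was 74.9, 75.5 and 78.0 CPM with MUC1shRNA, from 1456, 1280 and 1167 counts, against 31.2, 25.1 and 27.7 CPM with CshRNA, from 558, 379 and 531 counts. Every MUC1shRNA library lay above every control library. The share of all genes whose groups did not overlap was not counted, for this or the later comparisons, so such separation may be common. The means were 76.2 ± 1.67 CPM with MUC1shRNA and 28.0 ± 3.06 CPM with CshRNA (SD, n = 3 each). The fold fitted by edgeR was 2.70, or 1.44 on the log2 scale. Only 192 of the 13200 genes tested in BT-549 had a higher fold change. Over all these genes 33.3% passed edgeR's test at an adjusted p below 0.05, 16.8% of them higher and 16.5% lower with MUC1shRNA, and the median log2 fold change was -0.0053. That was 4398 genes, and 2716 without BT-549 MUC1shRNA 1.

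In SUM149 the same gene was nearly silent with MUC1shRNA. Its level was 0.826, 0.334 and 2.41 CPM there, from 7, 3 and 25 counts, against 19.4, 20.5 and 24.1 CPM with CshRNA, from 505, 433 and 528 counts. The groups did not overlap, and the highest MUC1shRNA library was the third. The exact Poisson 95% interval of that library, 1.56 to 3.56 CPM, lay apart from the 0.069 to 0.977 CPM of the second and overlapped the 0.332 to 1.70 CPM of the first. Intervals cover counting error only. The means were 1.19 ± 1.08 CPM with MUC1shRNA and 21.3 ± 2.48 CPM with CshRNA (SD, n = 3 each). The level fitted by edgeR was 16.8-fold lower, or -4.07 on the log2 scale. Without the third MUC1shRNA library the log2 fold change was -5.17. Over all 14178 genes tested in SUM149, 56.5% passed the test, 27.6% higher and 28.9% lower, with a median of -0.034, and 18 genes had a lower fold change than GDF15.

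ADM2 was low in SUM149 with MUC1shRNA, while in BT-549 its groups overlapped. In BT-549 it was 12.6, 9.38 and 10.7 CPM with MUC1shRNA, from 244, 159 and 160 counts, against 9.97, 9.49 and 9.61 CPM with CshRNA, from 178, 143 and 184 counts. The second MUC1shRNA library lay below all 3 controls, so the groups overlapped. The means were 10.9 ± 1.60 CPM with MUC1shRNA and 9.69 ± 0.250 CPM with CshRNA (SD, n = 3 each). The fitted difference was 0.17 on the log2 scale.

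In SUM149, ADM2 was 0.944, 0.557 and 0.964 CPM with MUC1shRNA, from 8, 5 and 10 counts, against 29.8, 28.0 and 28.2 CPM with CshRNA, from 777, 593 and 617 counts. All 3 MUC1shRNA libraries lay far below the controls. The means were 0.822 ± 0.229 CPM with MUC1shRNA and 28.7 ± 0.973 CPM with CshRNA (SD, n = 3 each). The level fitted by edgeR was 34.1-fold lower, or -5.09 on the log2 scale. Among all genes tested in that line, 7 had a lower fold change.

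STC2 had the highest counts of the 3 genes, with a small difference in BT-549 and a large one in SUM149. In BT-549 it was 779, 827 and 790 CPM with MUC1shRNA, from 15132, 14025 and 11810 counts, against 696, 683 and 664 CPM with CshRNA, from 12436, 10299 and 12723 counts. The groups did not overlap, though the gap was small and the share of all genes with such separation was not counted. The means were 799 ± 25.5 CPM with MUC1shRNA and 681 ± 16.2 CPM with CshRNA (SD, n = 3 each). The fitted fold was 1.17, or 0.23 on the log2 scale, and 3025 of the 13200 genes had a higher fold change.

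In SUM149, STC2 was 44.1, 51.0 and 48.5 CPM with MUC1shRNA, from 374, 458 and 503 counts, against 292, 292 and 280 CPM with CshRNA, from 7620, 6167 and 6133 counts. Again no library of one group came near the other. The means were 47.9 ± 3.49 CPM with MUC1shRNA and 288 ± 6.88 CPM with CshRNA (SD, n = 3 each). The fitted level was 5.95-fold lower, or -2.57 on the log2 scale. A lower fold change was found for 117 genes of the 14178.

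**Figure D1:**
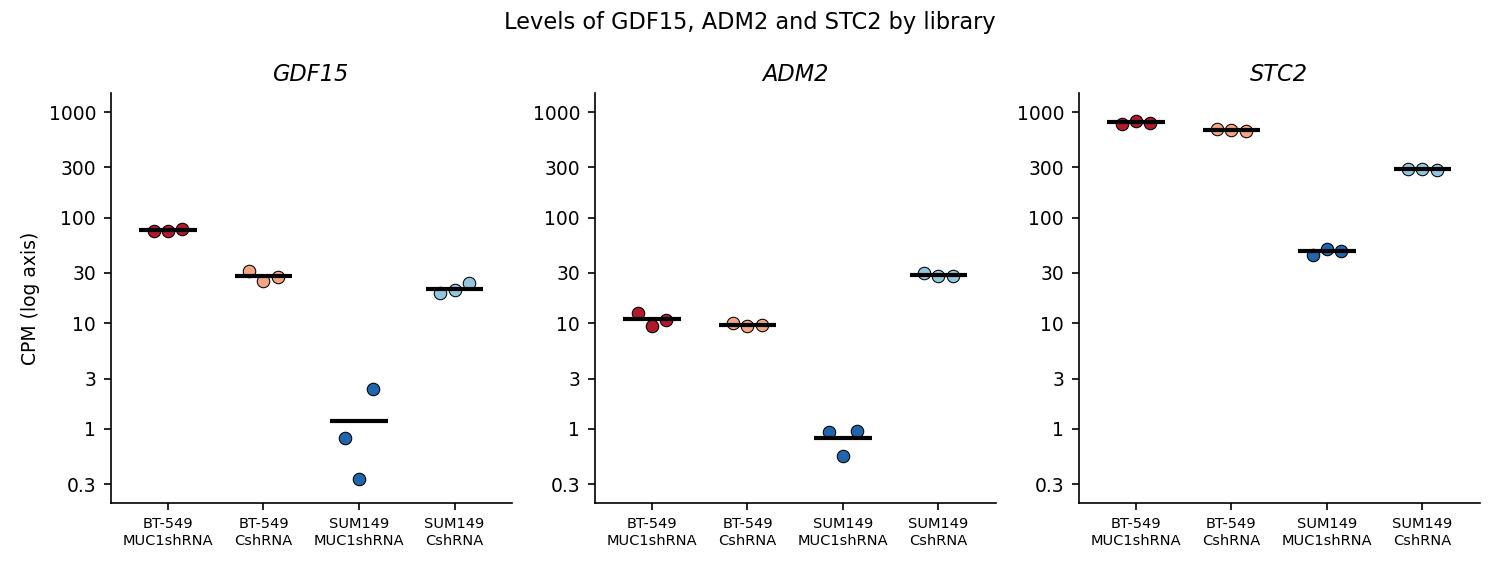
Level of GDF15, ADM2 and STC2 in each library, in CPM on a log axis, by group (points are libraries, bars are group means). The SUM149 MUC1shRNA libraries lie lowest in each panel, and GDF15 has its highest level in BT-549 MUC1shRNA, at 74.9 to 78.0 CPM.

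The response in BT-549 less that in SUM149 was 5.52 on the log2 scale for GDF15, 5.27 for ADM2 and 2.82 for STC2. Of the 15649 genes tested over all 12 libraries, 31 exceeded GDF15 in this difference, 42 exceeded ADM2 and 369 exceeded STC2. The median over all of them was 0.043, and 39.6% passed edgeR's test of the difference, 19.5% higher and 20.1% lower in BT-549. Leaving out the third SUM149 MUC1shRNA library moved the difference of GDF15 to 6.65.

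In these 3 genes, the control cells of the lines were less far apart than the silenced cells. Among CshRNA cells the log2 fold of BT-549 over SUM149 was 0.40 for GDF15, -1.56 for ADM2 and 1.24 for STC2, so ADM2 was lower in BT-549. The GDF15 ranges did not overlap after TMM scaling, at 25.1 to 31.2 CPM in BT-549 CshRNA and 19.4 to 24.1 CPM in SUM149 CshRNA. Scaled by the plain library totals they did overlap, at 23.2 to 29.1 in BT-549 CshRNA and 20.9 to 26.8 in SUM149 CshRNA, and the log2 fold was then 0.16. Among MUC1shRNA cells the log2 folds were 5.92 for GDF15, 3.71 for ADM2 and 4.06 for STC2, and no BT-549 library overlapped a SUM149 library. Without the third SUM149 MUC1shRNA library that of GDF15 was 7.05. Differences between the lines were common, since 83.0% of 15649 genes passed edgeR's test between CshRNA cells, 39.5% higher and 43.5% lower in BT-549. Between MUC1shRNA cells 79.7% passed, 38.9% higher and 40.8% lower in BT-549. These comparisons share libraries with those within the lines.

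**Figure D2:**
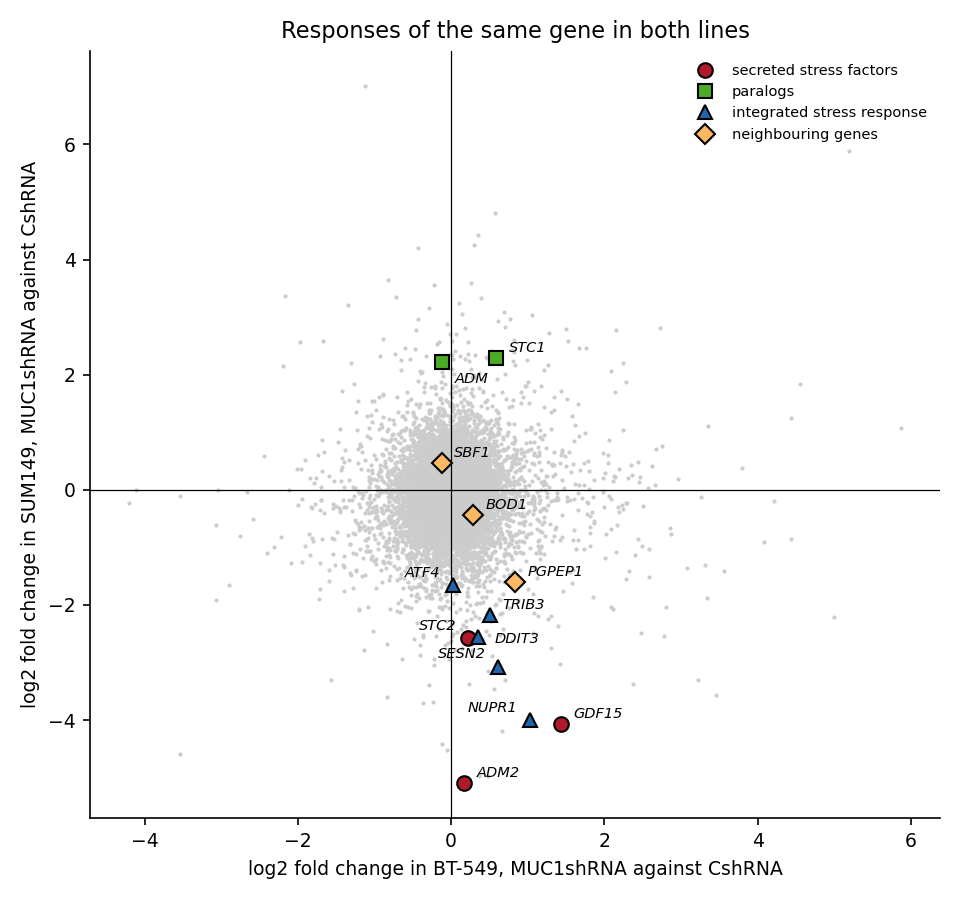
Log2 fold change of MUC1shRNA against CshRNA in BT-549 (horizontal axis) and in SUM149 (vertical axis), for each gene tested in both lines (grey) and selected genes (symbols by kind). GDF15 stands at 1.44 and -4.07, ADM2 at 0.17 and -5.09, and STC2 at 0.23 and -2.57, whereas the paralogs ADM and STC1 stand above 0 in SUM149.

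Compared per kilobase of annotated exon (RPKM), which allows levels of different genes to be set side by side, STC2 was the most abundant in each group and ADM2 the least. STC2 averaged 130 RPKM in BT-549 MUC1shRNA, 111 in BT-549 CshRNA, 7.81 in SUM149 MUC1shRNA and 47.0 in SUM149 CshRNA. Among 19708 protein-coding genes ordered by RPKM, it ranked 293, 362, 4978 and 723 in the same order of groups. GDF15 averaged 36.5 RPKM in BT-549 MUC1shRNA, 13.4 in BT-549 CshRNA, 0.570 in SUM149 MUC1shRNA and 10.2 in SUM149 CshRNA. ADM2 averaged 2.54 RPKM in BT-549 MUC1shRNA, 2.27 in BT-549 CshRNA, 0.192 in SUM149 MUC1shRNA and 6.70 in SUM149 CshRNA. The order of the 3 genes was the same in each group, except that in SUM149 MUC1shRNA the ranges of GDF15 (0.160 to 1.15 RPKM) and ADM2 (0.130 to 0.225 RPKM) overlapped. With the length of the longest coding transcript (1200 bases for GDF15 in place of 2087), GDF15 averaged 63.5 RPKM in BT-549 MUC1shRNA, 23.4 in BT-549 CshRNA, 0.992 in SUM149 MUC1shRNA and 17.8 in SUM149 CshRNA, while ADM2 kept its values, so the size of the ratio between them rests on the length used. By the union of exons, the ratio of GDF15 to ADM2 in RPKM was 12.2, 16.5 and 14.9 in BT-549 MUC1shRNA, against 6.42, 5.43 and 5.91 in BT-549 CshRNA. In SUM149 it was 1.79, 1.23 and 5.12 with MUC1shRNA, against 1.33, 1.50 and 1.75 with CshRNA. The balance of these 2 genes thus separated the groups in BT-549, while in SUM149 the groups overlapped.

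Across groups, GDF15 and STC2 had the same order of levels in CPM, and ADM2 had another. GDF15 was highest in BT-549 MUC1shRNA, then BT-549 CshRNA, SUM149 CshRNA and SUM149 MUC1shRNA. Scaled by plain library totals, the GDF15 ranges of the CshRNA groups overlapped, so their order rests on the scaling. ADM2 was highest in SUM149 CshRNA, the neighbours BT-549 MUC1shRNA and BT-549 CshRNA did not differ beyond their spread, and SUM149 MUC1shRNA was lowest. STC2 followed the order of GDF15, with no overlap between neighbouring groups.

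The receptors of GDF15 and ADM2 were nearly missing from both lines, with 1 exception. GFRAL had 0 counts in all 12 libraries, which allows up to 3 counts per library, or 0.124 to 0.378 CPM by plain totals. RET summed to 0 counts in BT-549 MUC1shRNA, 1 in BT-549 CshRNA, 0 in SUM149 MUC1shRNA and 4 in SUM149 CshRNA. CALCRL, the receptor of ADM2, summed to 1 and 1 counts in BT-549 MUC1shRNA and CshRNA and to 2 and 12 counts in SUM149 MUC1shRNA and CshRNA. Of its partners, RAMP2 reached at most 23 counts per group and RAMP3 at most 3. RAMP1 averaged 50.9 ± 17.7 CPM in BT-549 MUC1shRNA and 61.9 ± 13.5 CPM in BT-549 CshRNA, and 4.07 ± 0.533 CPM in SUM149 MUC1shRNA and 5.36 ± 3.30 CPM in SUM149 CshRNA (SD, n = 3 each). It was the 1 receptor gene of 6 with enough counts to test and did not pass in BT-549 (log2 fold change -0.29, edgeR adjusted p = 0.34) or SUM149 (-0.37, edgeR adjusted p = 0.36). Without BT-549 MUC1shRNA 2 it passed in BT-549, at -0.60 with an edgeR adjusted p of 0.013, and without SUM149 CshRNA 3 its value in SUM149 was 0.25.

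The closest relatives of ADM2 and STC2 went the other way in SUM149. ADM, the vasodilator adrenomedullin, rose there by 2.22 on the log2 scale (SE 0.18, edgeR adjusted p = 2.6e-07), to 10.3 ± 0.641 CPM with MUC1shRNA against 2.22 ± 0.310 CPM with CshRNA (SD, n = 3 each). In BT-549 it was 41.7 ± 4.79 CPM with MUC1shRNA and 45.1 ± 6.17 CPM with CshRNA and did not pass (-0.11, SE 0.11, edgeR adjusted p = 0.46). STC1, the paralog of STC2, rose in both lines, by 0.59 in BT-549 (SE 0.078, edgeR adjusted p = 5.2e-04) and by 2.29 in SUM149 (SE 0.098, edgeR adjusted p = 1.1e-09). It averaged 241 ± 16.5 CPM with MUC1shRNA and 160 ± 15.7 CPM with CshRNA in BT-549, and 94.1 ± 3.08 CPM with MUC1shRNA and 19.4 ± 2.81 CPM with CshRNA in SUM149 (SD, n = 3 each). The response in BT-549 less that in SUM149 was -2.32 for ADM (edgeR adjusted p = 4.2e-07) and -1.69 for STC1 (edgeR adjusted p = 2.3e-07), and thus opposite in sign to those of ADM2 and STC2. Per length, SUM149 MUC1shRNA cells held 3.79 RPKM of ADM and 22.7 RPKM of STC1, against 0.818 RPKM of ADM and 4.67 RPKM of STC1 in SUM149 CshRNA cells. ADM thus stood above ADM2 in the silenced cells and below it in the controls, and the same held for STC1 and STC2. CALCB, a gene of the calcitonin gene-related peptide, fell in SUM149 (-3.63, SE 0.69, edgeR adjusted p = 5.4e-04), at low levels of 0.0743 ± 0.129 CPM with MUC1shRNA and 0.995 ± 0.172 CPM with CshRNA (SD, n = 3 each). Without SUM149 MUC1shRNA 2 the value of CALCB was -7.13, and without SUM149 CshRNA 2 or SUM149 CshRNA 3 it had too few counts to be tested. CALCA summed to at most 1 count per group, and IAPP, the amylin gene, to 0.

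**Figure D3:**
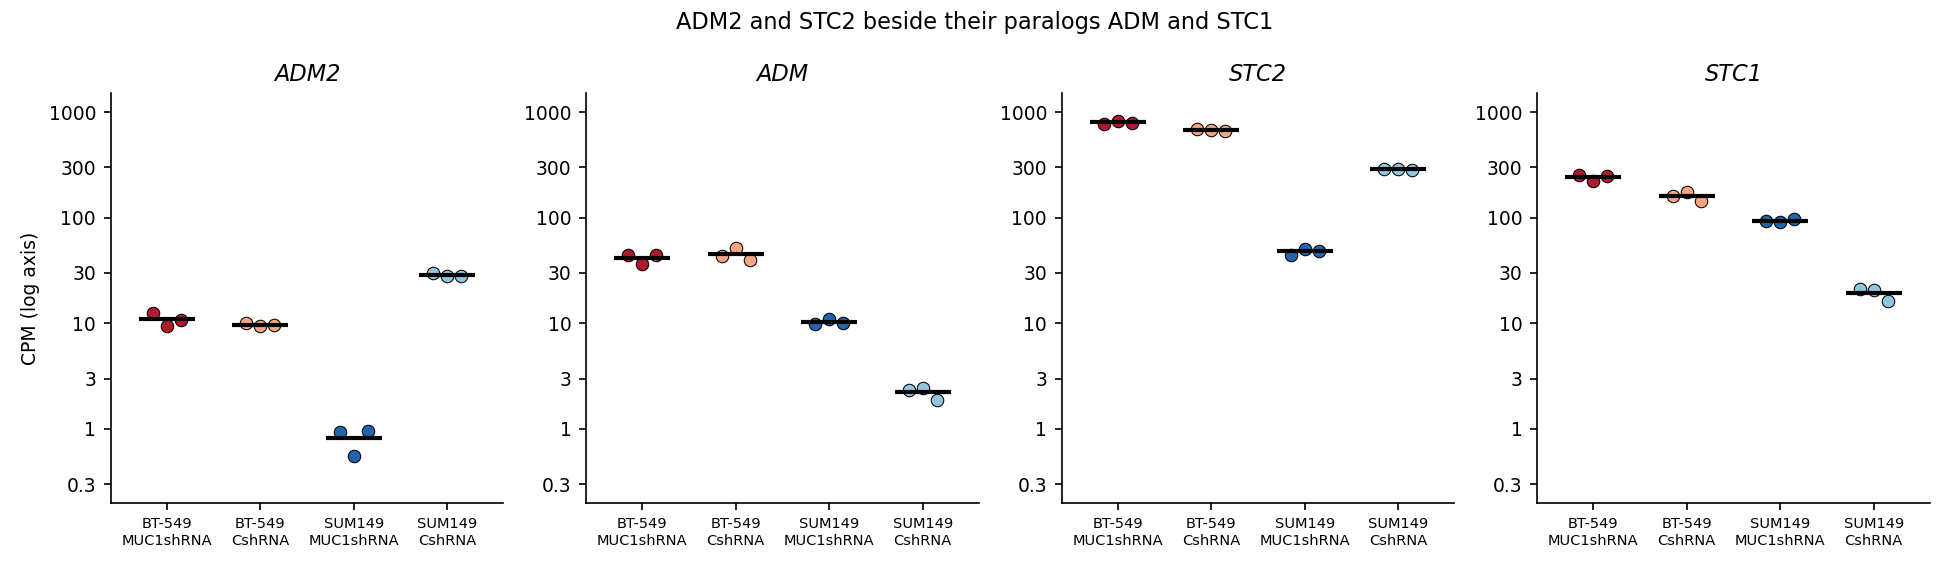
Level of ADM2, ADM, STC2 and STC1 in each library, in CPM on one log scale, by group (points are libraries, bars are group means). In SUM149, ADM2 and STC2 lie lower with MUC1shRNA than with CshRNA, while ADM and STC1 lie higher, at means of 10.3 and 94.1 CPM with MUC1shRNA.

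Other ligands of the TGF-beta family included genes that rose and genes that fell. Of 23 listed, 10 were tested in BT-549, where 5 rose and 3 fell (median on the log2 scale 0.70), and 12 in SUM149, where 4 rose and 4 fell (median -0.070). Over all genes tested, 16.8% rose and 16.5% fell in BT-549, and 27.6% rose and 28.9% fell in SUM149, so the shares of the family in SUM149 lay near those of all genes. INHBE, a hepatokine subunit of activin E, fell in SUM149 (-4.20, SE 0.45, edgeR adjusted p = 4.3e-06), to 0.182 ± 0.177 CPM with MUC1shRNA against 3.46 ± 0.480 CPM with CshRNA (SD, n = 3 each). In BT-549 its log2 fold change was 0.66 (SE 0.28, edgeR adjusted p = 0.098), and its difference between the responses was 4.87 (edgeR adjusted p = 9.8e-06). INHBA, the subunit of activin A, rose in both lines, by 1.35 in BT-549 (SE 0.17, edgeR adjusted p = 3.3e-04) and by 1.40 in SUM149 (SE 0.091, edgeR adjusted p = 4.3e-08). BMP2, a bone morphogenetic protein, rose by 1.15 in BT-549 and by 0.60 in SUM149 (edgeR adjusted p = 4.8e-05 and 1.1e-04). BMP7 rose in BT-549 (1.61, edgeR adjusted p = 6.3e-06) but did not pass there when all 12 libraries were fitted together (edgeR adjusted p = 0.10). BMP6 rose in SUM149 (1.17, edgeR adjusted p = 5.1e-05). GDF11, a close relative of myostatin, fell in BT-549 (-0.75, edgeR adjusted p = 3.1e-04), while in SUM149 it was 0.33 (edgeR adjusted p = 0.27) and 0.74 without SUM149 CshRNA 3 (edgeR adjusted p = 2.4e-04).

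Enzymes that turn precursors into active hormones were next examined. Of 9 listed, 5 were tested in BT-549, where 2 rose and 0 fell (median -0.11), and 8 in SUM149, where 3 rose and 3 fell (median 0.050). Over all genes, 16.8% rose and 16.5% fell in BT-549, and 27.6% rose and 28.9% fell in SUM149, and the list is too short to set its shares against these. In BT-549, 1 fell without BT-549 MUC1shRNA 2 or without BT-549 CshRNA 2. PAM, which amidates peptides such as ADM2, rose in both lines, by 0.59 in BT-549 (SE 0.076, edgeR adjusted p = 4.4e-04) and by 1.23 in SUM149 (SE 0.065, edgeR adjusted p = 6.3e-09). CPD, a carboxypeptidase, rose by 0.32 in BT-549 and by 0.48 in SUM149 (edgeR adjusted p = 0.0065 and 1.4e-04). PCSK1, a prohormone convertase of secretory granules, fell in SUM149 by 2.20 (SE 0.094, edgeR adjusted p = 1.1e-09), to 13.5 ± 0.162 CPM with MUC1shRNA against 62.8 ± 5.00 CPM with CshRNA (SD, n = 3 each). CPE, the carboxypeptidase that works after it, fell there by 1.42 (SE 0.090, edgeR adjusted p = 3.1e-08), and in BT-549 was -0.46 (SE 0.16, edgeR adjusted p = 0.051). That value in BT-549 passed in 7 of 16 alternatives, among them without BT-549 MUC1shRNA 2 (-0.53, edgeR adjusted p = 0.046), without BT-549 CshRNA 2 (-0.53, edgeR adjusted p = 0.049), 2 other scalings, 2 other filters and 1 fit of all libraries. FURIN, the ubiquitous convertase, averaged 14.4 ± 2.14 CPM with MUC1shRNA and 15.4 ± 1.58 CPM with CshRNA in BT-549, and 195 ± 24.2 CPM with MUC1shRNA and 204 ± 19.4 CPM with CshRNA in SUM149 (SD, n = 3 each).

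In the insulin-like growth factor axis on which STC2 acts, 3 genes passed in BT-549 and 2 in SUM149. The list is too short to set its shares against those of all genes. Of 12 genes, 8 were tested in BT-549 with 0 that rose and 3 that fell (median -0.16), and 9 in SUM149 with 2 that rose and 0 that fell (median -0.12). Over all genes, 16.8% rose and 16.5% fell in BT-549, and 27.6% rose and 28.9% fell in SUM149. In SUM149, 1 gene fell when any of its CshRNA libraries was left out, and in BT-549, 1 rose without BT-549 CshRNA 3. In BT-549, IGFBP4, the binding protein cut by PAPPA, fell by 1.07 (SE 0.060, edgeR adjusted p = 3.0e-06), to 45.2 ± 2.37 CPM with MUC1shRNA against 95.0 ± 1.56 CPM with CshRNA (SD, n = 3 each). IGFBP3, the main carrier in serum, fell there by 1.21 (SE 0.14, edgeR adjusted p = 1.9e-04), and PAPPA2, the paralog of PAPPA, by 1.13 (SE 0.18, edgeR adjusted p = 0.0015). In SUM149, PAPPA itself rose by 0.55 (SE 0.085, edgeR adjusted p = 1.1e-04) and the receptor IGF1R by 0.61 (SE 0.072, edgeR adjusted p = 1.1e-05). An antisense gene covers 21.2% of the exon bases of PAPPA. In BT-549, PAPPA was 0.20 (edgeR adjusted p = 0.17), and 0.33 without BT-549 CshRNA 3 (edgeR adjusted p = 0.0077). The difference between the responses was -1.22 for IGFBP4 (edgeR adjusted p = 4.1e-06), -1.93 for IGFBP3 (edgeR adjusted p = 0.0017) and -0.77 for IGF1R (edgeR adjusted p = 3.6e-05). It did not pass for PAPPA2 (-0.41, edgeR adjusted p = 0.45) or PAPPA (-0.33, edgeR adjusted p = 0.064), so their responses were not shown to differ between the lines. In SUM149, IGFBP3 was 0.71 and PAPPA2 -0.70 (edgeR adjusted p = 0.070 and 0.060), and without SUM149 CshRNA 3 both passed, at 1.25 and -0.83 (edgeR adjusted p = 1.5e-05 and 0.021).

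Of the listed genes of the integrated stress response, most fell in SUM149 and 9 rose in BT-549. EIF2AK3, among the 9 that rose, did not pass in SUM149. All 18 listed were tested in both lines. The list was chosen with earlier results of these libraries known, so its counts are a description. Its named genes include those of smallest adjusted p in each line. In SUM149, 12 fell and 3 rose (median -1.05), and in BT-549, 9 rose and 1 fell (median 0.20), or 2 fell without BT-549 CshRNA 3. Over all genes, 28.9% fell and 27.6% rose in SUM149, and 16.8% rose and 16.5% fell in BT-549. The count that rose in BT-549 was 6 to 8 when single libraries were left out. ATF4 averaged 137 ± 7.43 CPM with MUC1shRNA and 437 ± 10.0 CPM with CshRNA in SUM149 (-1.66, SE 0.066, edgeR adjusted p = 5.5e-10), and 426 ± 10.2 CPM with MUC1shRNA and 419 ± 10.0 CPM with CshRNA in BT-549 (0.021, SE 0.049, edgeR adjusted p = 0.77; SD, n = 3 each). The mRNA of ATF4 thus fell in SUM149 and did not pass the test in BT-549, where its value was -0.00084 without BT-549 CshRNA 1. NUPR1, a chromatin-associated stress protein, fell by 4.0 in SUM149 (SE 0.12, edgeR adjusted p = 7.9e-11) and rose by 1.03 in BT-549 (SE 0.082, edgeR adjusted p = 2.2e-05). SESN2, a leucine sensor that restrains mTORC1, fell by 3.07 in SUM149 (SE 0.12, edgeR adjusted p = 4.0e-10) and rose by 0.61 in BT-549 (SE 0.070, edgeR adjusted p = 2.1e-04). TRIB3, a pseudokinase that dampens ATF4 signalling, fell by 2.18 in SUM149 (SE 0.079, edgeR adjusted p = 2.3e-10) and rose by 0.51 in BT-549 (SE 0.064, edgeR adjusted p = 4.0e-04).

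DDIT3, the transcription factor CHOP, fell in SUM149 by 2.56 (SE 0.14, edgeR adjusted p = 6.5e-09). In BT-549 it rose by 0.34 (SE 0.10, edgeR adjusted p = 0.026), a call lost without BT-549 MUC1shRNA 2 (0.30, edgeR adjusted p = 0.058), without BT-549 MUC1shRNA 3 (0.35, edgeR adjusted p = 0.067) and without BT-549 CshRNA 1 (0.25, edgeR adjusted p = 0.094). Other genes, MARS among them on the opposite strand, cover 39.6% of its exon bases, and the strand setting of the counting is unknown. ATF5, a relative of ATF4, fell in BT-549 by 0.90 (SE 0.099, edgeR adjusted p = 1.7e-04) and was 0.17 in SUM149 (SE 0.099, edgeR adjusted p = 0.17), with 23.7% of its exon bases shared. CHAC1, which degrades glutathione, was chosen after its values were seen. It averaged 0.520 ± 0.276 CPM with MUC1shRNA and 16.3 ± 1.76 CPM with CshRNA in SUM149, and 14.6 ± 1.92 CPM with MUC1shRNA and 11.3 ± 0.501 CPM with CshRNA in BT-549 (SD, n = 3 each). The 3 genes that rose in SUM149 were EIF2AK2, EIF2AK4 and EIF2S1, which encode 2 of the upstream kinases and their target. In the test of the difference between the responses, 13 of the 18 were higher in BT-549 and 4 lower, with a median of 1.24 against 0.043 over all genes, of which 19.5% were higher and 20.1% lower.

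**Figure D4:**
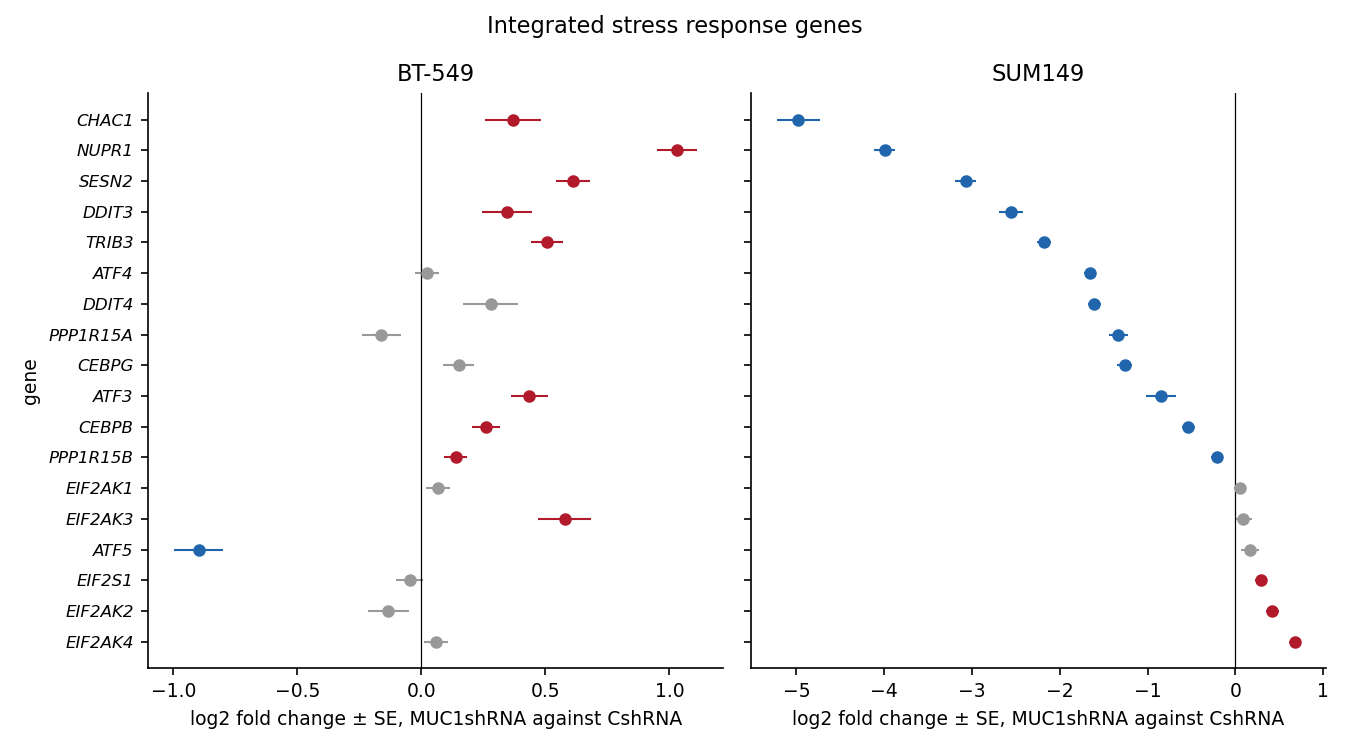
Log2 fold change with SE of the 18 integrated stress response genes, MUC1shRNA against CshRNA, in BT-549 (left) and SUM149 (right), on different horizontal scales. Red and blue points passed edgeR's test upward and downward and grey points did not, with 9 red in BT-549 and 12 blue in SUM149.

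Other regulators of stress transcription included genes that rose and genes that fell in both lines. Of 13 tested in each line, 3 rose and 3 fell in BT-549 (median 0.0039), and 1 rose and 7 fell in SUM149 (median -0.18). Over all genes, 16.8% rose and 16.5% fell in BT-549, and 27.6% rose and 28.9% fell in SUM149. The count that fell in BT-549 was 0 without BT-549 MUC1shRNA 2 or BT-549 MUC1shRNA 3 and 1 without BT-549 CshRNA 1 or BT-549 CshRNA 3. In SUM149, 2 rose without SUM149 CshRNA 1 or SUM149 MUC1shRNA 2. CDKN1A, the p21 inhibitor of cell-cycle kinases, rose in both lines, by 0.84 in BT-549 (SE 0.096, edgeR adjusted p = 2.2e-04) and by 0.86 in SUM149 (SE 0.085, edgeR adjusted p = 2.0e-06). MDM2, the p53 ligase, rose in BT-549 by 0.95 (SE 0.065, edgeR adjusted p = 8.7e-06), and in SUM149 was 0.15 (edgeR adjusted p = 0.063), or 0.20 without SUM149 MUC1shRNA 2 (edgeR adjusted p = 0.031). EPAS1, a hypoxia-inducible factor, rose in BT-549 by 0.63 (edgeR adjusted p = 1.1e-04) and in SUM149 was 0.14 (edgeR adjusted p = 0.097). In SUM149, XBP1, a factor of the unfolded protein response, fell by 1.38 (edgeR adjusted p = 3.5e-09), TFEB, a lysosomal regulator, by 2.13 (edgeR adjusted p = 1.4e-08) and NFE2L2, the antioxidant factor NRF2, by 1.09 (edgeR adjusted p = 1.9e-08). None of these last 3 passed in BT-549, where edgeR's adjusted p was 0.77 for XBP1, 0.19 for TFEB and 0.58 for NFE2L2.

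Other secreted stress factors did not share one direction. Of 17 listed, 12 were tested in BT-549 (2 rose, 2 fell, median 0.045) and 14 in SUM149 (7 rose, 5 fell, median 0.33). Over all genes, 16.8% rose and 16.5% fell in BT-549, and 27.6% rose and 28.9% fell in SUM149. The count that fell in BT-549 was 1 without BT-549 MUC1shRNA 1, BT-549 CshRNA 1 or BT-549 CshRNA 2, and 4 without the libraries BT-549 MUC1shRNA 2 and BT-549 CshRNA 3 together. ANGPTL4, an inhibitor of lipoprotein lipase, rose by 4.20 in SUM149 (SE 0.14, edgeR adjusted p = 1.1e-10), to 31.0 ± 3.06 CPM with MUC1shRNA against 1.70 ± 0.238 CPM with CshRNA, and fell by 0.44 in BT-549 (SE 0.064, edgeR adjusted p = 8.7e-04; SD, n = 3 each). VEGFA, the angiogenic growth factor, fell by 1.36 in SUM149 (SE 0.088, edgeR adjusted p = 4.2e-08) and was 0.042 in BT-549 (edgeR adjusted p = 0.72). LCN2, an iron-binding lipocalin, rose by 2.08 in BT-549 (SE 0.38, edgeR adjusted p = 0.0028) and by 2.07 in SUM149 (SE 0.067, edgeR adjusted p = 9.1e-11). Its mean CPM in BT-549 was 385-fold below that in SUM149 with CshRNA and 362-fold below it with MUC1shRNA. CXCL8, the neutrophil attractant interleukin-8, rose by 0.53 in BT-549 and by 0.98 in SUM149 (edgeR adjusted p = 2.4e-04 and 3.2e-06). FGF21, another hormone released under stress and chosen here after its values were seen, had 0 counts in SUM149 MUC1shRNA against 2.46 ± 0.145 CPM in SUM149 CshRNA (SD, n = 3). In BT-549 it was 0.225 ± 0.235 CPM with MUC1shRNA and 0.144 ± 0.125 CPM with CshRNA (SD, n = 3 each).

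The neighbours of the 3 genes on their chromosomes did not all follow them. PGPEP1, a peptidase gene 4780 bases from GDF15 on the same strand, rose in BT-549 by 0.84 (SE 0.082, edgeR adjusted p = 7.9e-05) and fell in SUM149 by 1.60 (SE 0.14, edgeR adjusted p = 6.2e-07). It averaged 23.5 ± 1.24 CPM with MUC1shRNA and 13.1 ± 0.308 CPM with CshRNA in BT-549, and 7.86 ± 0.968 CPM with MUC1shRNA and 24.0 ± 3.81 CPM with CshRNA in SUM149 (SD, n = 3 each). Its difference between the responses was 2.46 (edgeR adjusted p = 6.0e-08). LRRC25, 1967 bases from GDF15 on its other side, had at most 2 counts per group. SBF1, 6531 bases from ADM2, was -0.12 in BT-549 (edgeR adjusted p = 0.45) and rose by 0.47 in SUM149 (SE 0.082, edgeR adjusted p = 3.0e-04), and MIOX, 343 bases beyond ADM2, had at most 3 counts per group. BOD1, 278010 bases from STC2, rose by 0.29 in BT-549 (edgeR adjusted p = 0.0027) and fell by 0.44 in SUM149 (edgeR adjusted p = 1.1e-04). NKX2-5, 79355 bases away on the other side, was below 1.15 CPM in each BT-549 library, at -0.94 (edgeR adjusted p = 0.056), or -1.11 without BT-549 CshRNA 2 (edgeR adjusted p = 0.038).

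Genes with the most similar pattern were found by Pearson's r of log2 CPM over the 12 libraries, among 15592 genes. Libraries of a group are not independent, so r mainly describes the 4 group levels and no p is given. STC2 was most like SARS (0.997) and RGS3 (0.997), a regulator of G-protein signalling, followed by ALDH1L2 (0.994), a mitochondrial folate enzyme, PXK (0.993) and MARS (0.992). SARS and MARS encode the cytosolic seryl- and methionyl-tRNA synthetases. ADM2 was most like RABGGTB (0.989), a Rab prenyltransferase subunit, PSAT1 (0.989), an enzyme of serine synthesis, SLC7A11 (0.984), the cystine importer, ZNF25 (0.983) and TRIM25 (0.978), a ubiquitin ligase. GDF15 was most like ZNF252P (0.980), AL031985.3 (0.978), TECPR1 (0.978), DELE1 (0.975), which relays mitochondrial stress, and SASH1 (0.975). None of the 3 genes was among the 5 most similar to another. Between them, r was 0.949 for GDF15 and STC2, 0.835 for GDF15 and ADM2 and 0.767 for ADM2 and STC2.

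**Figure D5:**
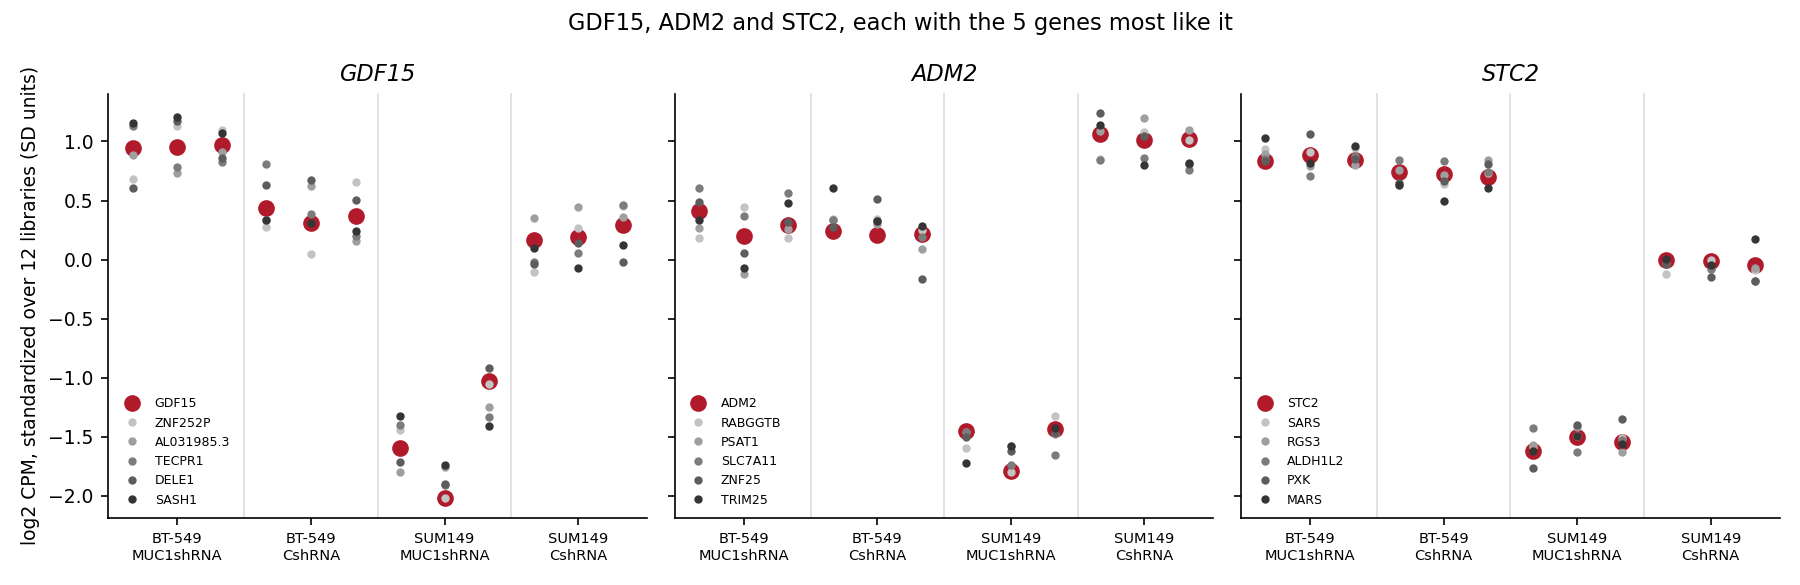
Log2 CPM of GDF15, ADM2 and STC2 (red) and of the 5 genes most like each (grey), standardized over 12 libraries to SD units, by group with 3 libraries each. The SUM149 MUC1shRNA libraries are lowest for the red and grey points in each panel, and the third of them is the highest of its group for GDF15.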

How the data were processed

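The authors deposited 1 table of raw counts per gene for 12 libraries, with 58037 gene rows and whole numbers of at least 0. Per the labels' protocols, Trizol was used for extraction and the TruSeq Stranded mRNA kit for the libraries. Tools in the submitters' processing notes are CASAVA 1.8.2, STAR 2.7.0 and also DESeq2 1.24.0, listed without roles beside the build GRCh38.p7. How reads were counted, and on which strand and annotation, is not stated there, so overlapping genes may share reads.

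GDF15, ADM2, STC2 and the 8 gene lists (103 genes) were chosen with earlier results of these data known. After 45 pseudoautosomal Y rows were left out, 57388 of 57992 rows matched GENCODE 29. Each line was fitted with edgeR 4.0.16 in R 4.3.3 (TMM scaling, filterByExpr defaults, quasi-likelihood test, Benjamini-Hochberg adjustment over all tested genes, threshold 0.05). Between-line comparisons and the difference between the responses used 1 fit of 12 libraries. All genes of the receptor and calcitonin-stanniocalcin lists, ATF4, DDIT3, the 3 genes of smallest adjusted p per line in each other list, MUC1, nearest protein-coding neighbours and the 5 most similar genes (prior count 2) were named by rule. RPKM used the union of exons. Alternatives were other scalings and filters, DESeq2 1.42.0, limma-voom (limma 3.58.1), a replicate block, 1 fit of all libraries, libraries left out and transcript length. No 2 libraries of a group differed by as little as counting noise (chi-square per degree of freedom 1.85 to 14.5). Scripts were tested on simulated data.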

Additional observations from a re-analysis of the deposited data

Results flagged for a closer look

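In the responses to MUC1shRNA, GDF15 and STC2 moved in opposite directions in the lines. For both genes, every MUC1shRNA library lay above the controls in BT-549 and below them in SUM149. The share of all genes whose groups did not overlap was not counted. STC2 differed by 0.23 on the log2 scale in BT-549, where 3025 of 13200 genes had a higher fold change, and by -2.57 in SUM149. The difference in log2 fold change, BT-549 minus SUM149, was 5.52 for GDF15 and 2.82 for STC2, and was not tested because these genes were chosen with results known.

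For further genes named above, edgeR's interaction test over 12 libraries found a different response in each line, at adjusted p-values below 0.05. In the integrated stress response the difference, BT-549 minus SUM149, was 5.04 for NUPR1, 3.70 for SESN2, 2.92 for DDIT3, 2.70 for TRIB3, 1.70 for ATF4 and -1.05 for ATF5. Among other regulators it was 2.61 for TFEB, 1.43 for XBP1, 1.06 for NFE2L2, 0.82 for MDM2 and 0.51 for EPAS1. Among secreted factors it was 4.87 for INHBE, 1.41 for VEGFA, 0.57 for BMP2, -0.44 for CXCL8, -1.06 for GDF11, -1.69 for STC1, -2.32 for ADM and -4.62 for ANGPTL4. The value of CXCL8 had an edgeR adjusted p of 0.016, and without SUM149 MUC1shRNA 1 it was -0.32 (edgeR adjusted p = 0.057). Among processing enzymes and genes of the insulin-like growth factor axis it was 0.97 for CPE, -0.63 for PAM, -0.77 for IGF1R, -1.22 for IGFBP4 and -1.93 for IGFBP3. Among chromosomal neighbours it was 2.46 for PGPEP1, 0.74 for BOD1 and -0.57 for SBF1.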

How the results depend on the processing

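Every member fold change kept its sign under every alternative run. In SUM149, the log2 fold change of GDF15 ranged from -5.17 to -3.62 when single libraries were left out. In the MUC1shRNA cells of both lines its difference ranged from 5.49 to 7.05, and in the difference between the responses from 5.09 to 6.65. The difference of ADM2 between the responses ranged from 5.07 to 5.43. Between the CshRNA cells of both lines, the log2 fold of ADM2 was -1.69 with upper-quartile scaling, -1.81 with library totals, -1.50 without a filter and -1.65 with at least 5 CPM in 3 libraries. That of STC2 was 1.12, 1.00, 1.31 and 1.15 in the same settings, and that of GDF15 was 0.16 with library totals. Between the MUC1shRNA cells, STC2 was 3.95, 3.83 and 4.14 with upper-quartile scaling, library totals and no filter. Upper-quartile scaling moved the median of all genes by -0.12 between CshRNA cells and by -0.10 between MUC1shRNA cells, and library totals by -0.24 and -0.22.

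In BT-549, leaving out single libraries gave 2716 to 4470 called genes, 1379 to 2286 of them higher and 1337 to 2184 lower, and the lowest values were without MUC1shRNA 1. The integrated stress response members that fell in BT-549 numbered 1 to 2 when single libraries were left out, and 2 without the libraries that stood apart. In BT-549, 3 values near 0 changed sign when single libraries were left out. They were ATF4 (-0.00084 to 0.046, lowest without CshRNA 1), VEGFA (-0.034 to 0.11, lowest without MUC1shRNA 2) and XBP1 (-0.017 to 0.090, lowest without MUC1shRNA 1). RAMP1 in SUM149, at -0.37, also changed sign (-0.63 to 0.25). It was highest without SUM149 CshRNA 3, and 0.25 without the libraries that stood apart. The cause was not tested. Of the values of named genes, 1717 kept their call and direction, 28 newly passed, 5 no longer passed and 5 changed sign.

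The replicate numbers were not shown to pair the samples. Deviations from the group means correlated at 0.038, -0.15 and -0.13 between same-numbered BT-549 libraries and at -0.084, 0.097 and 0.086 in SUM149. Between different-numbered libraries they reached 0.19 in BT-549 and 0.17 in SUM149. With 3 libraries per group, these values cannot decide whether the samples were paired. With the replicate block, 1446 genes were called lower in BT-549, against 2182 without it. In the same fit 0 of the other stress regulators and 1 of the other secreted stress factors fell in BT-549, against 3 and 2 without the block. Depth limits GDF15 and ADM2 most in SUM149 MUC1shRNA, where they had 3 to 25 counts per library.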
